A study of Mus musculus with 6 samples.

Results

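The transcripts described here are 7 Krüppel-like factors (Klf2, Klf3, Klf4, Klf6, Klf7, Klf10 and Klf13), the sphingosine 1-phosphate receptors S1pr1 and S1pr4, and Cd69, a lymphocyte activation antigen. These 10 genes were taken by name from a deposited table of 26181 genes, and each was present and passed the filter on low values, a mean of at least 10 normalised counts. RNA was sequenced from splenic CD8+ T cells of WT (wild-type) C57BL/6 mice, in 3 libraries from mice on ND and 3 from mice on CDAHFD, a choline-deficient, high-fat diet used to model steatohepatitis. Both groups were 6 weeks old when feeding began and were fed for 7 weeks, and no other treatment or allele is named. A sort gate, a purity and separate animals per library are not given in the sources used here, so p-values measure the spread between these libraries, which may be technical. The ND and CDAHFD libraries were made with a whole-RNA or an mRNA kit, and which kit served which library is likewise not given.

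Krüppel-like factors (KLFs) are zinc-finger transcription factors that bind CACCC and GC-rich boxes, and related Sp proteins bind the same kind of site. In naive T cells, KLF2 maintains quiescence and activates S1pr1, with FOXO1 acting upstream, while KLF4 restrains proliferation of CD8+ T cells. S1PR1 lets lymphocytes leave the spleen and lymph nodes by following sphingosine 1-phosphate (S1P) into blood and lymph, and the CD69 protein binds S1PR1 and removes it from the cell surface. RNA levels do not measure that surface step.

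RefSeq promoter sequences of build GRCm38.p6 were matched for 7 of the 10 genes. No entry was matched for Klf10, S1pr1 or Cd69. The 250 bases before the start site are shown for Klf2, the most abundant of these KLF transcripts per length and one that was lower after CDAHFD, and for Klf6, which was higher, so that their KLF-type boxes can be set side by side. Both read 5′ to 3′ on the plus strand, Klf2 from chr8:72318812-72319061 and Klf6 from chr13:5861239-5861488, with capitals marking matches on either strand to CACCC and to the MEF2 consensus.
Klf2: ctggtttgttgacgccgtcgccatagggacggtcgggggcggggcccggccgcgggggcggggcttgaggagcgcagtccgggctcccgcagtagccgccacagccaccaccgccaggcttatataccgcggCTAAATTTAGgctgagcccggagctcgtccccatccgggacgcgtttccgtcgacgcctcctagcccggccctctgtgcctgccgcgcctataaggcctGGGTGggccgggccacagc
Klf6: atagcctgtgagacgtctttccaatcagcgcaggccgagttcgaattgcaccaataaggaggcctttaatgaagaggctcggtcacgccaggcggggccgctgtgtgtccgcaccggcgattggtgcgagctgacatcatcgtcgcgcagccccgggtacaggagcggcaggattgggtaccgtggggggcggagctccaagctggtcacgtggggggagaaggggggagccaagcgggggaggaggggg

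The Klf2 stretch held 1 CACCC box, at -19 to -15 from the start site, and 1 MEF2 match, at -118 to -109. The Klf6 stretch held neither. Both held the GC box GGGCGG, at 2 places in Klf2 and at 1 place in Klf6, from -63 to -58. Motifs were searched on both strands in windows of 250 bases before and 50 after each start. CACCC was found in 57.5% of 32851 RefSeq promoters, GGGCGG in 35.7% and the MEF2 consensus in 3.19%. Among the other genes, Klf3 held 5 CACCC and 6 GC boxes, Klf7 held 3 and 1, Klf13 held 1 and 3, Klf4 held 0 and 4, and S1pr4 held 1 and 0. In Klf3 and in Klf13, 1 CACCC box overlapped a GC box. The AP-1 motif TGANTCA, in 7.81% of all promoters, and the forkhead motif GTAAACA, in 3.65%, were matched in 0 of the 7 windows. These windows were rich in G and C, from 58.3% to 76.7% in the 6 KLF genes against a median of 52.7% over all promoters, and S1pr4 was lower at 41%. These matches describe letters in a window and not bound sites.

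Libraries held 25314988 to 28067393 reads in genes. CDAHFD replicate 1 lay farthest from its group, at 5.70 and 5.40 times the variance of read sampling from the other two, which differed by 2.72. The CD8+ T cell label was checked on 12 T cell identity genes (Cd3d, Cd3e, Cd3g, Cd247, Cd8a, Cd8b1, Trac, Trbc1, Trbc2, Cd2, Cd5 and Lck). Their summed level was 153922 to 158523 normalised counts in the ND libraries and 122690.0 to 127399 in the CDAHFD libraries, and 11 of the 12 fell. Markers of several other cell types, though not of all, moved with diet as well. Counts in this paragraph stand beside the 24.6% of all genes tested that rose and the 22.5% that fell. All 15 macrophage markers rose (Vsig4 passed the filter only through its CDAHFD libraries), with sums from 20479.7 to 22903 in ND and from 153509 to 169929 in CDAHFD, and all 9 erythroid markers rose, from 1005 to 1023 in ND and from 9318 to 9670.1 in CDAHFD. All 7 neutrophil markers rose (2362 to 2408 in ND, 9011 to 9895 in CDAHFD), as did 5 of 6 plasma cell markers (2802 to 2919 in ND, 38589.7 to 40157 in CDAHFD). B cell markers fell in 7 of 9 cases and rose in 1 (55821 to 56814 in ND, 49629.9 to 52740.2 in CDAHFD). Dendritic cell markers fell in 5 of 6 (8275 to 8768 in ND, 6249.7 to 6941 in CDAHFD). Of 6 tested endothelial markers 3 rose and 2 fell (6091 to 6153 in ND, 8386 to 8649.8 in CDAHFD). Markers of NK cells rose in 1 and fell in 1 of 5 (372 to 414 in ND, 699.8 to 778 in CDAHFD). Markers of CD4+ and regulatory T cells rose in 3 and fell in 1 of 5 (1038 to 1158 in ND, 1234 to 1326 in CDAHFD), and 0 of 2 tested platelet markers were called (106 to 132 in ND, 88.8 to 121 in CDAHFD). The deposited table holds no gene at 0 in all 6 libraries, and of 9 listed endothelial markers 8 were in it. The part of these other cells in the results below was not tested, and in such bulk samples fewer cells of a type and less RNA per cell cannot be told apart.

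With the deposited scaling, Klf6 and Klf10 rose after CDAHFD, while Klf2, Klf3, Klf7, Klf13, S1pr1 and S1pr4 fell by small amounts, and Klf4 and Cd69 did not pass the test. Of the 8 called genes only Klf6 and Klf10 kept their direction when libraries were scaled instead to equal levels of the 12 T cell identity genes (T-scaled values). On that scale Klf2, Klf3, Klf13 and S1pr1 were higher and passed the test, and Klf4, Klf7 and S1pr4 stood slightly above ND without passing it. The 12 scaling genes themselves scattered on it, as 4 were higher and 3 lower and passed the test, among them Cd3e (0.25) and Trbc1 (-0.14). The T-scaled log2 fold changes of Klf2 (0.17), Klf3 (0.14), Klf13 (0.22) and S1pr1 (0.13) lay between those of Cd3e and Trbc1, within that scatter. Genes are called at an adjusted p under 0.05 in limma, a linear model fitted on log2(normalised count + 1) across all 15819 genes tested with Benjamini-Hochberg adjustment, and "rose" and "fell" are used only for called genes. Of the 10 genes 8 were called, against 47.1% of all genes tested. The count was also 8 by edgeR (47.3% of all genes), by DESeq2 (42.7%) and with the replicate number as a block (45.8%), and it was 6 by limma without trend and robust estimation (38.6%). The 2 that rose stand beside 24.6% of all genes and the 6 that fell beside 22.5%. Counts of genes that rose or fell in the other lists below stand beside the same shares. Their median log2 fold change was -0.18, against -0.01 over all genes. T scaling moved the median of all genes to 0.32, with 67.4% of genes called, 63% higher and 4.45% lower, and gave the 10 genes a median of 0.16 with 7 higher and 0 lower. The share of all called genes that were higher went from 52.2% to 93.4% with it.

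**Figure D1:**
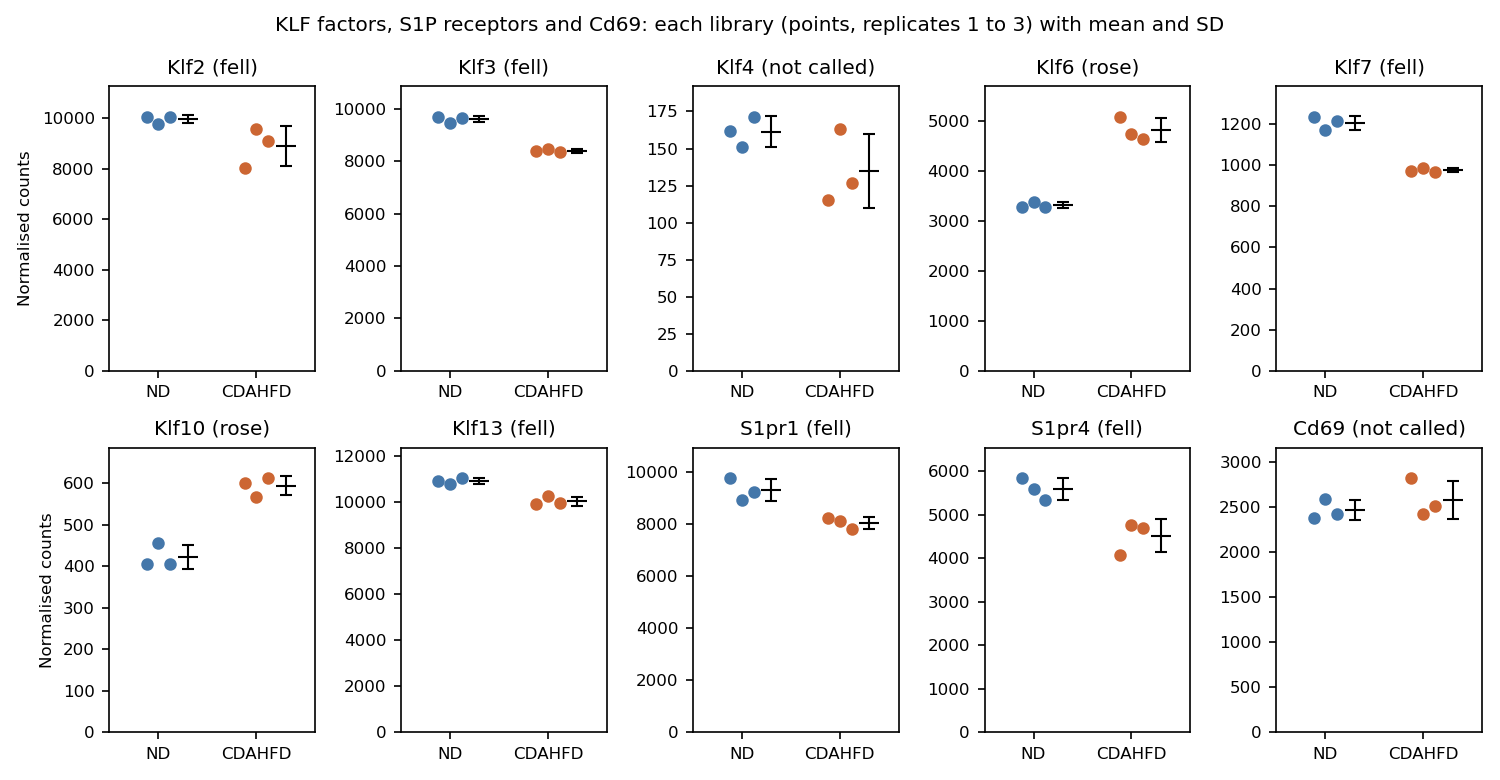
Deposited normalised counts of the 10 genes in each ND and CDAHFD library, with points for libraries and a line with bars for the mean and SD of each group; each panel has its own axis from 0. Klf6 and Klf10 lie higher in all 3 CDAHFD libraries, 6 genes lie lower (a direction that T scaling turns in all 6), and Klf4 and Cd69 overlap.

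Klf2 (ENSMUSG00000055148, chr8:72319033-72321656, plus strand, mm10) was read at 10068, 9781 and 10066 normalised counts in the ND libraries and at 8043, 9580.5 and 9102 in the CDAHFD libraries. All 3 CDAHFD values lay below all ND values, and the first was the lowest of the 6 by a wide step. The means, 9972 ± 165 and 8908 ± 787 (SD, n = 3 each), differed by -10.7%, a log2 fold change of -0.17 (SE 0.05, 95% interval -0.27 to -0.06, limma adjusted p = 0.00838), which T scaling turned to 0.17 (0.06 to 0.28, adjusted p = 0.00544). Without CDAHFD replicate 1 the fall was smaller, at -0.09 (limma adjusted p = 0.0344). Limma without a mean-variance trend and robust estimation did not call it (adjusted p = 0.136). T-scaled values were 8903, 8611 and 9121 in ND and 8955, 10616 and 10460.2 in CDAHFD, so that the same first CDAHFD library then lay among the ND libraries.

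Klf3 encodes a repressor that recruits CtBP proteins to CACCC boxes. The gene (ENSMUSG00000029178, chr5:64803388-64832901, plus strand) gave 9697, 9459 and 9623 normalised counts in ND and 8365, 8466 and 8332 in CDAHFD. The replicates lay close together and the diets did not overlap, with means of 9593 ± 122 and 8388 ± 69.5. The log2 fold change was -0.19 (SE 0.04, limma adjusted p = 8.58e-05) and turned to 0.14 with T scaling (0.06 to 0.23, adjusted p = 0.00267). Its exons share 404 bases with Gm20033 on the opposite strand, a transcript at a mean of 68.5 normalised counts, and the strand setting of the counting is not given in the sources used here.

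Klf13 encodes a factor required for late expression of the chemokine Ccl5 in T cells. At ENSMUSG00000052040 (chr7:63886351-63938915, minus strand) the ND libraries gave 10939.9, 10793 and 11061 normalised counts and the CDAHFD libraries 9933, 10285 and 9962. This was the smallest fall among the called genes, from 10931 ± 134 to 10060.2 ± 195 or -7.97%, with no overlap between diets. Its log2 fold change of -0.12 (SE 0.04, 95% interval -0.20 to -0.04, limma adjusted p = 0.00956) turned to 0.22 with T scaling (0.13 to 0.30, adjusted p = 1.63e-05). Limma without trend and robust estimation gave an adjusted p of 0.0656, so the call depends on the variance model. T-scaled, the ND libraries read 9673, 9501 and 10022 and the CDAHFD libraries 11059.7, 11397 and 11449, again without overlap.

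Klf7 encodes a broadly expressed KLF best known from the developing nervous system. Its 3 ND libraries read 1236, 1169 and 1212 normalised counts and its 3 CDAHFD libraries 974, 986 and 969 (ENSMUSG00000025959, chr1:64029447-64122282, minus strand). The CDAHFD libraries agreed within a narrow band well below ND, with means of 1206 ± 34 and 976 ± 8.73. The fall was -0.30 on the log2 scale (SE 0.05, limma adjusted p = 2.96e-05), against 0.03 with T scaling (-0.09 to 0.15, adjusted p = 0.649). Relative to the T cell identity genes no difference in Klf7 was detectable at this spread. Its exons share 3196 bases with the long non-coding gene Gm26649 on the opposite strand. Gm26649 is absent from the deposited genes, so no level can be given for it. Part of the Klf7 count could belong to that gene if strand was not used.

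Klf6 showed the largest rise of the 10 genes. KLF6 is a widely expressed factor induced early in many cells after stimulation or injury. The ND libraries gave 3275, 3383 and 3289 normalised counts and the CDAHFD libraries 5091, 4743 and 4635 (ENSMUSG00000000078, chr13:5861482-5870394, plus strand). Every CDAHFD library stood far above every ND library, and the means were 3316 ± 58.4 and 4823 ± 238. Klf6 rose by 45.5%, a log2 fold change of 0.54 (SE 0.04, 95% interval 0.45 to 0.63, limma adjusted p = 1.60e-11), and by 0.88 with T scaling (0.78 to 0.97). Leaving out each library in turn kept the rise between 0.50 and 0.57.

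Klf10, first known as a gene rapidly induced by TGF-β, was the other that rose. It read 404, 455 and 404 normalised counts in ND and 601, 567 and 612 in CDAHFD (ENSMUSG00000037465, chr15:38291463-38300706, minus strand). The diets were far apart relative to the spread within each, with means of 421 ± 29.2 and 593 ± 23.1. The rise was 40.8%, a log2 fold change of 0.49 (SE 0.08, 95% interval 0.34 to 0.65, limma adjusted p = 3.78e-06), and 0.83 with T scaling (0.67 to 0.99).

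Klf4, the quiescence factor of CD8+ T cells, was the least abundant. ND libraries read 162, 151 and 172 normalised counts and CDAHFD libraries 115, 163 and 127 (ENSMUSG00000003032, chr4:55527143-55532466, minus strand). CDAHFD replicate 2 lay within the ND values and the other two lay below them. The means of 161 ± 10.3 and 135 ± 24.9 gave a log2 fold change of -0.27 (95% interval -0.55 to 0.01, limma adjusted p = 0.107), and T scaling gave 0.07 (-0.21 to 0.34, adjusted p = 0.684). Without CDAHFD replicate 2 Klf4 was called, at -0.41 (limma adjusted p = 0.0218), so a single library decides its call.

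S1pr1 encodes the main egress receptor of T cells. Its values were 9756, 8927 and 9207 normalised counts in ND and 8229, 8108 and 7783 in CDAHFD (ENSMUSG00000045092, chr3:115710433-115715072, minus strand). The diets did not overlap, with means of 9297 ± 421 and 8039.7 ± 231, a difference of -13.5%. S1pr1 fell by 0.21 on the log2 scale (SE 0.04, 95% interval -0.29 to -0.13, limma adjusted p = 0.000103), a direction that T scaling turned to 0.13 (0.04 to 0.21, adjusted p = 0.00891). On that scale ND libraries read 8626, 7859 and 8341 and CDAHFD libraries 9162, 8985 and 8944, all above ND.

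S1pr4 encodes an S1P receptor found mostly on lymphoid and other blood cells. ND libraries gave 5846, 5592 and 5344 normalised counts and CDAHFD libraries 4085, 4774 and 4693 (ENSMUSG00000044199, chr10:81497747-81500132, minus strand). CDAHFD replicate 1 was again the lowest library, and none reached the ND values. The means of 5594 ± 251 and 4517 ± 376 gave a log2 fold change of -0.31 (SE 0.05, 95% interval -0.42 to -0.20, limma adjusted p = 3.69e-05), against 0.03 with T scaling (-0.08 to 0.13, adjusted p = 0.687). T-scaled ND libraries, at 5169, 4922 and 4842, overlapped the CDAHFD libraries at 4549, 5290.4 and 5393.

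Cd69 read 2384, 2592 and 2428 normalised counts in ND and 2825, 2424 and 2510.0 in CDAHFD (ENSMUSG00000030156, chr6:129267325-129275436, minus strand). The diets overlapped with the deposited scaling, and only CDAHFD replicate 1 lay above all ND libraries. The means were 2468 ± 109 and 2587 ± 211, and the log2 fold change was 0.07 (95% interval -0.04 to 0.17, limma adjusted p = 0.323). Without CDAHFD replicate 1 it was 0.00 (limma adjusted p = 0.996). T scaling separated the diets, at 2108, 2282 and 2199.6 in ND and 3145, 2687 and 2885 in CDAHFD, and gave a called difference of 0.40 (0.29 to 0.51, limma adjusted p = 1.88e-08).

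**Figure D2:**
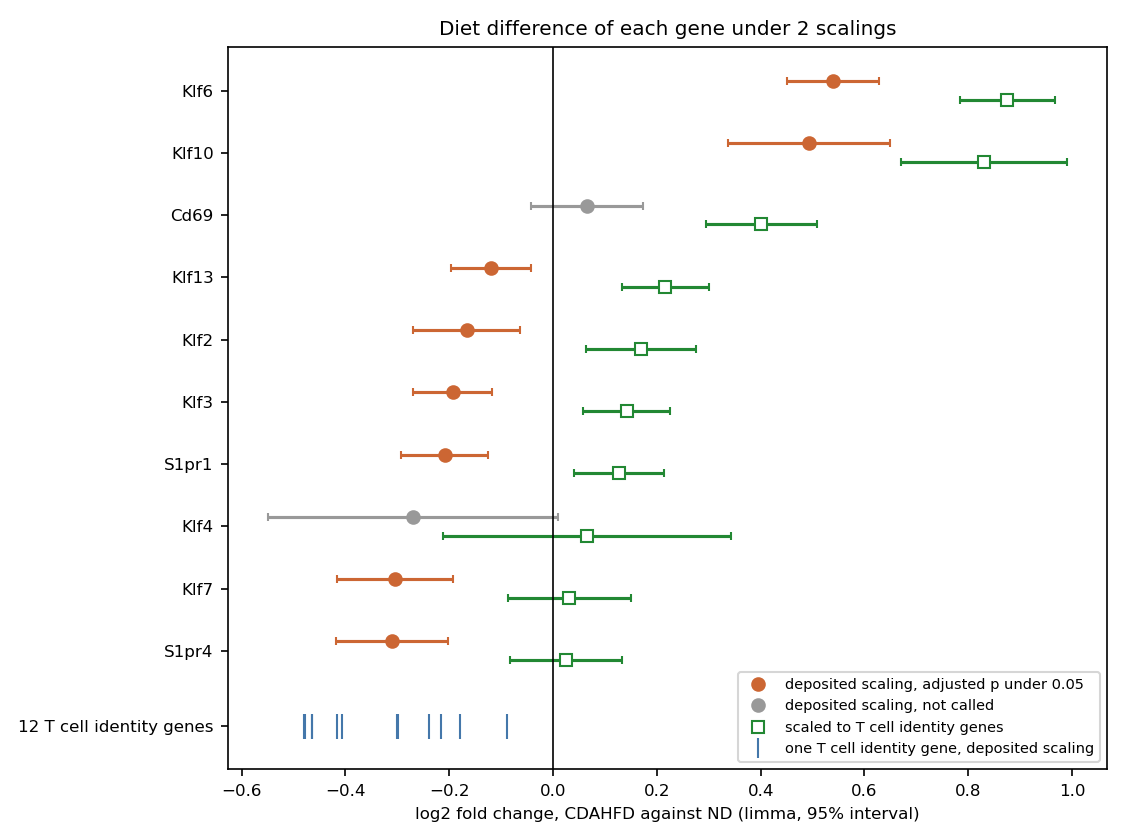
Log2 fold change of CDAHFD over ND for each gene with its 95% interval from limma, with the deposited scaling (filled, grey where not called) and with libraries scaled to 12 T cell identity genes (open squares), whose own deposited values are the ticks at the bottom. The 6 genes that fell with the deposited scaling stand at or above 0 after T scaling, while Klf6 and Klf10 stand above 0 under both.

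Set directly against the T cell identity genes, whose log2 fold changes ran from -0.48 to -0.09 with a median of -0.35, the small falls were mostly smaller still. Klf2 and Klf13 lay above 11 of these 12 genes, Klf3 and S1pr1 above 10, Klf4 above 8, and Klf7 and S1pr4 above 6. Klf6, Klf10 and Cd69 lay above all 12. Exact permutation of the diet labels on the deposited values of each gene gave a two-sided p of 0.1 for each of the 8 called genes, the smallest that 3 libraries against 3 allow, and 0.3 for Klf4 and 0.6 for Cd69. Over all genes tested, the diets did not overlap in 54.3%, with CDAHFD higher in 27.8% and lower in 26.5%, against 2 higher and 6 lower among the 10.

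Levels were compared between genes as normalised counts per kb of merged exons. In ND, Klf2 stood first at 5399 ± 89.4 per kb, followed by S1pr1 at 3052 ± 138 and S1pr4 at 2344 ± 105. Klf13 (1451 ± 17.9), Klf3 (853 ± 10.8) and Klf6 (755 ± 13.3) came next, and then Cd69 at 379 ± 16.8. Klf7 (148 ± 4.18), Klf10 (101 ± 6.99) and Klf4 (52.9 ± 3.37) were lowest. In this order no gene overlapped its neighbour in any library. After CDAHFD the first 4 places and the last were held by the same genes, from Klf2 at 4823 ± 426 to Klf4 at 44.3 ± 8.15 per kb. Neighbours changed places in 2 pairs: Klf6 (1098 ± 54.3) stood above Klf3 (746 ± 6.18), and Klf10 (142 ± 5.53) above Klf7 (120.1 ± 1.07). Here too neighbours did not overlap.

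**Figure D3:**
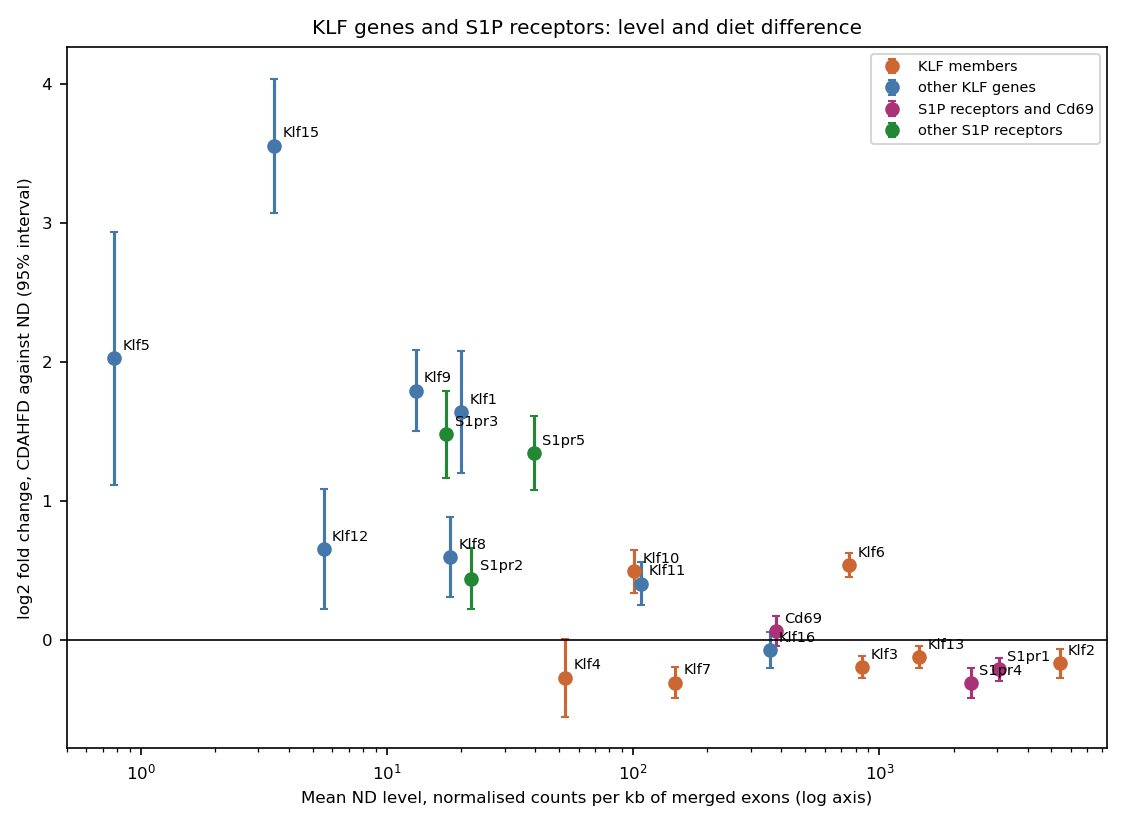
Level in ND per kb of merged exons (log axis) against the log2 fold change of CDAHFD over ND with the deposited scaling, for the 10 genes and the other KLF and S1P receptor genes. Klf9, Klf1, S1pr3 and S1pr5 lie well above 0, the abundant Klf2, Klf13 and S1pr1 just below 0 (above 0 with T scaling), and Klf5 and Klf15, lowest in ND, are shown only because their CDAHFD values passed the filter.

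Of the 8 other KLF genes tested, Klf5 and Klf15 passed the filter on low values only through their CDAHFD libraries and are given as values. Of the other 6, 5 rose and 1 was not called with the deposited scaling, where most of the 7 KLF genes above fell. With T scaling 5 of those 7 were higher and 0 lower, and these 6 were all higher and called. Klf15, a factor of fasting and glucocorticoid metabolism, read 9.68 ± 0.658 normalised counts in ND and 125 ± 13 in CDAHFD, and Klf5 read 4.04 ± 1.19 and 19.2 ± 1.72. Klf9, a glucocorticoid-induced KLF, rose from 62.9 ± 7.03 to 220.1 ± 18.1 (1.79, SE 0.14, limma adjusted p = 1.38e-11). Klf1, the master factor of red cell development, rose from 30.6 ± 7.22 to 96.6 ± 17.4 (1.64, SE 0.21, limma adjusted p = 2.49e-07), beside the rise of all 9 erythroid markers. Klf11, the closest relative of Klf10, rose from 465 ± 14.6 to 618 ± 46.9 (0.41, SE 0.07, limma adjusted p = 4.61e-05). Klf8 and Klf12, named like Klf5 after their values were seen, rose from 94.1 to 143 and from 38.6 to 61.9 normalised counts. Klf16 was not called (-0.07, limma adjusted p = 0.385, against 0.26 with T scaling). The summed level of all 8 genes was 1633 to 1687 normalised counts in ND and 2139.9 to 2239 in CDAHFD, against 35191 to 35828 and 33121 to 34790.4 for the 7 KLF genes described first.

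Of the related Sp factors 4 were tested, of which 2 fell and 0 rose, with directions that T scaling turned in all 4. Sp3 fell from 6381 ± 118 to 5254 ± 179.7 (-0.28, SE 0.04, limma adjusted p = 1.11e-06; T-scaled 0.06). Sp4 fell from 3189 ± 197 to 2759 ± 72.8 (-0.21, SE 0.05, limma adjusted p = 0.000504; T-scaled 0.13). Sp1 and Sp2 stood at -0.06 and -0.08 and were not called (T-scaled 0.27 and 0.26).

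Regulators and partners of KLF proteins changed in both directions, with 5 of 16 higher, 7 lower and a median of -0.09, against 12 higher, 2 lower and a median of 0.25 with T scaling. Wwp1, a ubiquitin ligase that targets KLF2 and KLF5 for degradation, rose from 1444 ± 9.53 to 2739.8 ± 139 normalised counts (0.92, SE 0.05, limma adjusted p = 1.07e-15). Ctbp2, a corepressor that KLF3 recruits, rose from 103 ± 11 to 203 ± 10.2 (0.98). The TGF-β receptor genes Tgfbr1 (0.57) and Tgfbr2 (0.28), upstream of Klf10, rose as well. Foxo3 was higher by 0.13, a call that 4 of the 6 omissions of 1 library (ND replicate 2 or 3, CDAHFD replicate 2 or 3), equal library totals and limma without trend each ended. Foxo1, the activator of Klf2 and S1pr1, fell from 7417 ± 239 to 5645 ± 137 (-0.39, SE 0.04, limma adjusted p = 2.37e-09), and with T scaling stood at -0.06 (adjusted p = 0.241). Mef2c, one of the MEF2 factors through which ERK5 signalling activates Klf2, fell from 1525 ± 55.8 to 1071 ± 48 and was lower under both scalings (-0.51 and -0.17). B cell markers in these libraries fell in 7 of 9 cases and rose in 1, and with T scaling 5 were lower and 2 higher. The part of other cells in the fall of Mef2c was not tested. The other 5 regulators and partners that fell, named after their values were seen, were Fhl3, Mapk7, Mef2a, Mef2d and Ctbp1. With T scaling Fhl3 was still lower (-0.38) while the other 4 stood above 0. Map2k5, Smurf1, Fbxw7 and Sin3a were not called, at -0.15 to -0.06 with the deposited scaling and 0.18 to 0.28 with T scaling. Map2k5 was called lower with equal library totals (-0.17, limma adjusted p = 0.0478) and without CDAHFD replicate 2 (-0.21, limma adjusted p = 0.0246).

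**Figure D4:**
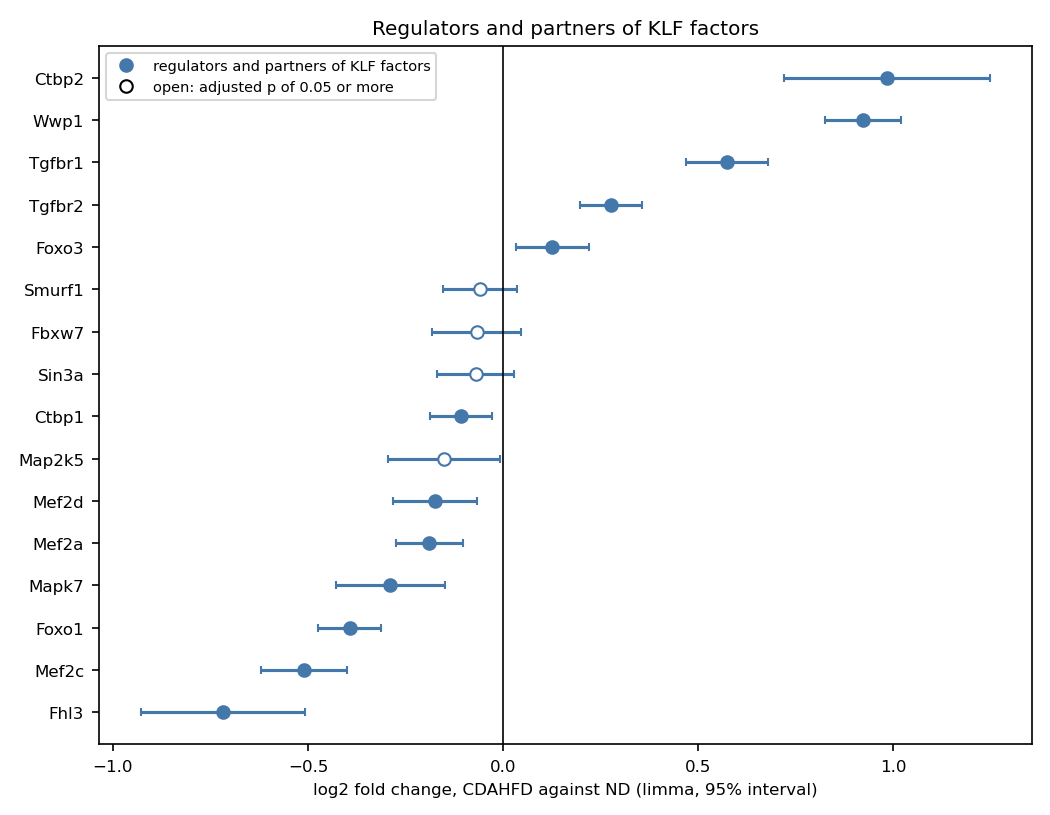
Log2 fold changes of CDAHFD over ND with 95% intervals from limma, with the deposited scaling, for 16 regulators and partners of KLF proteins; open points were not called. Ctbp2, Wwp1 and Tgfbr1 lie highest, while Fhl3, Mef2c and Foxo1 lie lowest and with T scaling stand at -0.38, -0.17 and -0.06.

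Genes known to move when T cells lose KLF2 or KLF4 differed in their response. Among chemokine receptors that rise in KLF2-deficient T cells, Ccr3 read 357, 423 and 385 normalised counts in ND and 2465, 2166 and 2277 in CDAHFD. It rose by 2.57 on the log2 scale (SE 0.07, limma adjusted p = 2.04e-22), and Cxcr3 rose by 0.87. Ccr3 is also expressed by myeloid cells, whose markers rose in the same libraries, and the part of those cells was not tested. Eomes, the T-box factor of memory CD8+ T cells, rose by 0.15 (limma adjusted p = 0.00845), a call that limma without trend (adjusted p = 0.0634) and the omission of ND replicate 2 (adjusted p = 0.0505) each ended. The gut homing integrin gene Itgb7 (0.03), the cell cycle inhibitor gene Cdkn1a (-0.03, against 0.30 with T scaling) and Myc (0.03) were not called. T scaling gave Itgb7 and Myc called values of 0.37 each.

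The other 3 S1P receptors all rose, from low levels. S1pr2, which couples to G12/13 and helps to keep germinal centre B cells in follicles, read 188, 176 and 162 normalised counts in ND and 234, 242 and 239 in CDAHFD (0.44, SE 0.11, limma adjusted p = 0.00118). S1pr3, an S1P receptor of vessel wall and myeloid cells, read 76.1, 96.9 and 60.3 in ND and 233, 202 and 211 in CDAHFD (1.48, SE 0.15, limma adjusted p = 3.33e-09). S1pr5, the egress receptor of NK cells that effector CD8+ T cells also express, read 100.1, 85.7 and 109 in ND and 221, 256 and 278 in CDAHFD (1.35, SE 0.13, limma adjusted p = 9.17e-10). None of the 3 overlapped between diets, and all 3 were higher with T scaling too. Together they summed to 332 to 364 normalised counts in ND and 687 to 728 in CDAHFD, far below S1pr1 alone.

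Enzymes and transporters that make, break down or export S1P rose in 9 of 15 cases and fell in 0, with a median of 0.50. Sgpl1, the S1P lyase that degrades S1P irreversibly, rose from 2632 ± 61.8 to 4276 ± 156 normalised counts (0.70, SE 0.04, limma adjusted p = 5.16e-14). Plpp3, a lipid phosphatase that removes S1P outside cells, rose from 125 ± 10.1 to 539.8 ± 48.7 (2.10, SE 0.10). The ceramidase genes Asah1 (1.25) and Acer3 (1.47), whose products release sphingosine, rose too. The remaining genes in this paragraph were named after their values were seen. The kinase gene Sphk1 rose from 11.8 ± 4.4 to 33.3 ± 9.96, while Sphk2, at 1350.0 ± 75.9 and 1244 ± 53.7, was not called (-0.12, limma adjusted p = 0.0823, against 0.22 with T scaling). The endothelial exporter gene Spns2 was not called either (-0.11, 95% interval -0.42 to 0.20, limma adjusted p = 0.584, against 0.23 with T scaling). With T scaling 12 of the 15 were higher and 0 lower.

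Downstream of the receptors, 6 of 13 tested signalling genes rose and 3 fell, with a median of -0.04, against 12 higher, 0 lower and a median of 0.29 with T scaling. Gna12, the G12 subunit gene used by S1PR2 and S1PR3, rose from 816 ± 57.4 to 2146 ± 84.8 (1.40, SE 0.06, limma adjusted p = 3.46e-18), and Gnaq rose from 452 ± 31.7 to 729.8 ± 19.9 (0.69). Gnai2, the Gi subunit gene that carries the S1PR1 signal in lymphocytes, was not called (-0.09, limma adjusted p = 0.0604, against 0.25 with T scaling), though 6 alternatives called it lower (adjusted p from 0.0161 with equal library totals to 0.0484 in DESeq2). Arhgef1, the RhoA exchange factor of lymphocytes below G12/13, fell from 39949 ± 721 to 30924 ± 2863 (-0.37, SE 0.05, limma adjusted p = 1.15e-05) and stood at -0.04 with T scaling (adjusted p = 0.574). Rac2 fell by 0.19 and Grk2, the kinase that desensitises S1PR1 at high S1P, by 0.11, and both directions turned with T scaling (0.15 and 0.23). Limma without trend ended both of these calls (adjusted p = 0.0544 and 0.0941), and for Grk2 so did the replicate block (0.0509) and the omission of ND replicate 1 (0.0720). Arrb2, a β-arrestin gene of receptor internalisation, rose by 0.24. Gnai3, Dock2 and Dnm2 were not called, though without CDAHFD replicate 1 Gnai3 was called lower (-0.097, limma adjusted p = 0.0441).

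**Figure D5:**
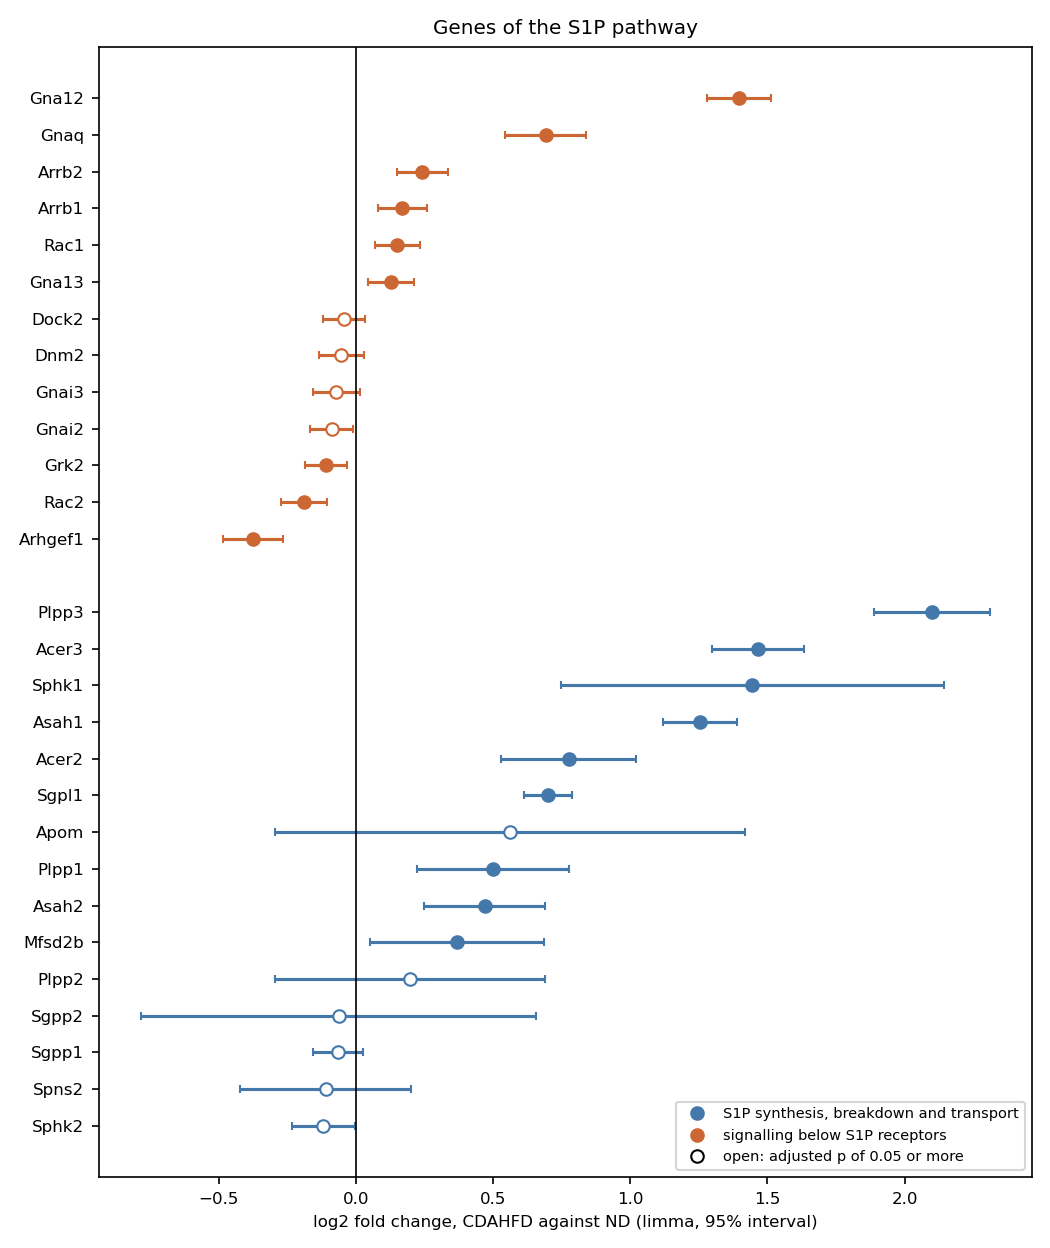
Log2 fold changes of CDAHFD over ND with 95% intervals from limma, with the deposited scaling, for genes of S1P synthesis, breakdown and transport and for signalling genes below the receptors; open points were not called. Plpp3 (2.10), Acer3 (1.47) and Gna12 (1.40) are among the highest, and Arhgef1 (-0.37, or -0.04 with T scaling) lies lowest.

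Klf6 and Klf10 belong to genes that respond fast to stimulation or handling, and 2 lists of such genes were set beside them. Of 20 immediate early genes 5 rose and 6 fell, with a median of -0.08, against 13 higher, 4 lower and a median of 0.26 with T scaling. Over all genes tested 24.6% rose and 22.5% fell, and with T scaling 63% were higher and 4.45% lower. Dusp1, a phosphatase gene, rose from 2021 ± 20 to 2919 ± 130.1 normalised counts, by 0.53, and Ier3 rose from 99.7 to 248. Jun, Nfkbia and Btg2 rose by 0.31, 0.30 and 0.13 on the log2 scale, and the call of Btg2 was lost in limma without trend (adjusted p = 0.0836) and without ND replicate 3 (0.0505). Egr1 and Egr3, which T cell receptor signals induce, fell by 0.70 and 0.89, and by 0.36 and 0.55 with T scaling. Of 8 tested heat shock genes 7 rose, among them Hspa1b from 217 ± 2.02 to 2151 ± 54.3 and Hspa1a from 86.9 to 735, and Hspe1 was not called (0.04, against a called 0.38 with T scaling). The part of a stress response in the rise of Klf6 and Klf10 was not tested.

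Genes with profiles nearest to Klf2, S1pr1 and Cd69 were taken by the Euclidean distance between log2 profiles over the 6 libraries, each minus its ND mean. Nearest to Klf2 were Map2k5 (distance 0.0444 log2 units), Noc4l (0.0451) and Zfp395 (0.05), with log2 fold changes of -0.15, -0.17 and -0.17. Nearest to S1pr1 were Polr3c (0.0415), Incenp (0.0525) and Ube2r2 (0.0548), with -0.21, -0.20 and -0.21. Nearest to Cd69 were Seh1l (0.0463), Dnajc3 (0.0518) and Sod2 (0.0562), with 0.05, 0.08 and 0.06. With the deposited scaling Noc4l, Zfp395, Polr3c, Incenp and Ube2r2 fell (limma adjusted p from 0.00046 to 0.0366), while Map2k5, Seh1l, Dnajc3 and Sod2 were not called. All 9 differences were small, and the distances are descriptions over 6 libraries whose depth and composition all these genes share.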

How the data were processed

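RNA of splenic CD8+ T cells was measured in 3 ND and 3 CDAHFD libraries. The authors deposited 1 table of signal values for 26181 Ensembl genes, read counts divided by a factor per library. The build was mm10, per the submitters' processing notes. Aligner, counter, strand setting and annotation are not given in the sources used here. All values (100%) were whole multiples, within 0.001, of 1 step per column, which gave back whole reads. These steps are the reciprocals of the libraries' median-of-ratios size factors (largest relative difference 2.66e-15). Columns spelled CDHFD were matched to the CDAHFD samples, and 0 columns belonged to other samples. Symbols matched 26147 IDs, and coordinates and exon lengths came from GENCODE M21 of the same build.

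The main test was limma 3.58.1 (trend, robust) in R 4.3.3 on log2(normalised count + 1), for 15819 genes with a mean of at least 10, with diet as the only term. Fold changes on that scale understate the change of low genes. edgeR 4.0.16 and DESeq2 1.42.0 ran on the whole reads as alternatives. T-scaled values shift the log2 values of each library so that the mean of 12 T cell identity genes is equal in all. Other alternatives were pseudocounts of 0.5 and 5, no filter or a minimum of 50, equal totals, TMM, limma with array weights or without trend and robust estimation, a replicate block, and each library left out. Chi-square per degree of freedom over genes with at least 20 reads was 2.72 to 5.70 between libraries of 1 diet and 65.8 to 72.4 between diets, so no library is the same library sequenced again, which says nothing of separate animals or preparations. Tested on simulated data for this comparison with 15819 genes, the main test found, of 50 genes at each size, 32 at a true change of 1.3-fold and 35 at 1.5-fold. It found 42 at 2-fold, 50 at 4-fold, and made 10 false calls. Only these genes were changed in the simulation, a far smaller share than the 47.1% called in the data. With this adjustment for many tests, recovery and false calls in the data may therefore differ.

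The 10 genes, the lists and the alternatives were chosen with earlier results of these data known. Named were the 10 genes, up to 4 called genes with the smallest adjusted p per list, any gene a count of 5 or fewer rests on, and the 3 nearest profiles of Klf2, S1pr1 and Cd69. Of the genes so named, 2 are not reported here.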

Additional observations from a re-analysis of the deposited data

How the results depend on the processing

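Scaling decided most directions. With libraries scaled to the T cell identity genes, log2 fold changes below 0 turned to 0.17 for Klf2, 0.14 for Klf3, 0.066 for Klf4, 0.031 for Klf7, 0.22 for Klf13, 0.13 for S1pr1 and 0.025 for S1pr4, and Cd69 was called at 0.40. Values below 0 also turned for Klf16 (0.26), Sp1 (0.27), Sp2 (0.26), Sp3 (0.055), Sp4 (0.13), Map2k5 (0.18), Smurf1 (0.28), Fbxw7 (0.27), Sin3a (0.27), Cdkn1a (0.30), Rac2 (0.15), Grk2 (0.23), Gnai2 (0.25), Gnai3 (0.26), Dock2 (0.29) and Dnm2 (0.28). The construction of that scaling sets them: it adds to every gene what the T cell identity genes lost. Limma without trend and robust estimation left Klf2 (-0.17, adjusted p = 0.136) and Klf13 (-0.12, adjusted p = 0.0656) uncalled. Array weights turned Hspe1 to -0.011.

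With 1 library left out, log2 fold changes ranged from -0.22 to -0.09 for Klf2, -0.20 to -0.19 for Klf3, -0.41 to -0.16 for Klf4, 0.50 to 0.57 for Klf6, -0.33 to -0.29 for Klf7, 0.47 to 0.55 for Klf10, -0.14 to -0.11 for Klf13, -0.24 to -0.17 for S1pr1, -0.35 to -0.24 for S1pr4 and 0.00 to 0.11 for Cd69. Klf4 was called without CDAHFD replicate 2 (-0.41). Klf16 ranged from -0.13 to 0.0027, Cdkn1a from -0.14 to 0.060 and Hspe1 from -0.057 to 0.094. Of the 10 genes 8 to 9 were called, and of all genes 6608 to 7509, against 7449 with all libraries, 7489 by edgeR and 6755 by DESeq2. The replicate block called 8 of the 10 and 7250 genes in all. Beyond Grk2 this block ended no call of a named gene. Diets share replicate numbers, and deviations of same-numbered libraries correlated at 0.04, -0.05 and 0.06. Those of different-numbered libraries correlated from -0.09 to 0.05. No pairing by number was seen, but 3 libraries per diet cannot exclude one. Over all alternatives and results, 1307 values were counted as unchanged and 29 turned direction, with or without a change of call. With direction kept, 18 lost a call and 14 gained one. The 1307 include counts of called genes, for which only a similar total was required and direction was not compared. Among them, with T scaling, are 10668 genes called against 7449, and a change from 2 higher and 6 lower to 7 higher and 0 lower among the 10 genes.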
